A study of Mus musculus with 6 samples.

Results

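The insulin-like growth factors Igf1 and Igf2, the clearance receptor Igf2r and the binding proteins Igfbp2 to Igfbp7 were followed in the left ventricle of mice with and without Akt2. All probe sets whose platform annotation names exactly 1 of these 9 genes were taken, which gave 23 of the 45101 probe sets on the array. A further probe set that names both Igf2r and Airn was left out. The wild type group held 3 samples from male C57BL/6 mice, and the knockout group held 3 from male akt2-/- mice on the same strain. All mice were aged 12 to 16 weeks and no treatment is named. Per the labels, the akt2 gene was disrupted by targeting and the line was backcrossed to wild type C57BL/6 mice, and no tissue-restricted driver is named. The knockout therefore does not separate the heart muscle cell from other cells or organs. Whether each sample was a different mouse is not labelled. The p-values therefore rest on the scatter among 3 samples a group, which may be technical.

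IGF ligands act through the type 1 IGF receptor, which signals to phosphoinositide 3-kinase and on to the Akt kinases. Igf1 supports growth of the heart muscle cell, and Igf2 is mainly a fetal growth factor. Binding proteins carry the ligands, prolong their life and hold them away from the receptor, and proteases release the ligands again. Igf2r takes up Igf2 for destruction and also sorts lysosomal enzymes that carry mannose 6-phosphate.

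The values are MAS5 signals, 1 per probe set and array, with the same trimmed mean on every array. The knockout was visible in Akt2, whose probe set 1424480_s_at had 2362.6, 2561.3 and 2505.4 in wild type replicates 1, 2 and 3, against 477.8, 394.5 and 255.4 in the knockout. Without a block, the 3 Akt2 probe sets had log2 differences of -2.69, -3.63 and -1.11 and limma adjusted p of 0.18, 0.549 and 1, so even the targeted gene did not pass. Both arrays numbered 1, wild type and knockout, differed from the rest. Log2 signals correlated at 0.94 between these 2 arrays, at 0.982 to 0.986 among the other 4, and at 0.895 to 0.944 across the sets, over probe sets that are not independent replicates. The labels name no cause for this. Differences are therefore also given for the replicate 1 pair alone (1 array a genotype), for the later pairs, meaning replicates 2 and 3 (2 arrays a genotype), and with the replicate 1 arrays as a block in the fit. Heart muscle was recognisable from its 7 cardiomyocyte markers, whose mean log2 signals lay at or above percentile 98.6 of all probe sets other than controls. All 7 exceeded the filter on low signals. So did all 8 fibroblast, 8 endothelial, 8 macrophage and monocyte, and 7 smooth muscle and pericyte markers. Of the skeletal muscle list 3 of 7 markers exceeded it, and of the blood list 3 of 7. Of 5 markers of atrial muscle, 4 exceeded it too. None of the hepatocyte, adipocyte or mesothelial markers did.

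No IGF or IGFBP probe set passed the test between the genotypes. Of the 23 probe sets, 20 exceeded the filter (the median of all probe sets' mean log2 signals). In limma 0 of these 20 had an adjusted p under 0.05, against 0% of the 22519 probe sets tested. Unadjusted p was under 0.05 for 0 of the 20, against 2.01% of all tested probe sets. With the replicate 1 arrays as a block, 0 of the 20 passed the adjusted threshold, against 0.00444% of all. Unadjusted p was then under 0.05 for 2 of them, Igfbp3 (1458268_s_at) and Igfbp6, both lower in the knockout, against 7.77% of all tested probe sets in either direction and 4.25% lower. Differences are knockout minus wild type on the scale log2(signal + 21.7), which understates the change of dim genes. They ran from -0.58 to 0.27 over the 20 probe sets, with a median of -0.12, beside 0.01 over all tested probe sets.

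**Figure D1:**
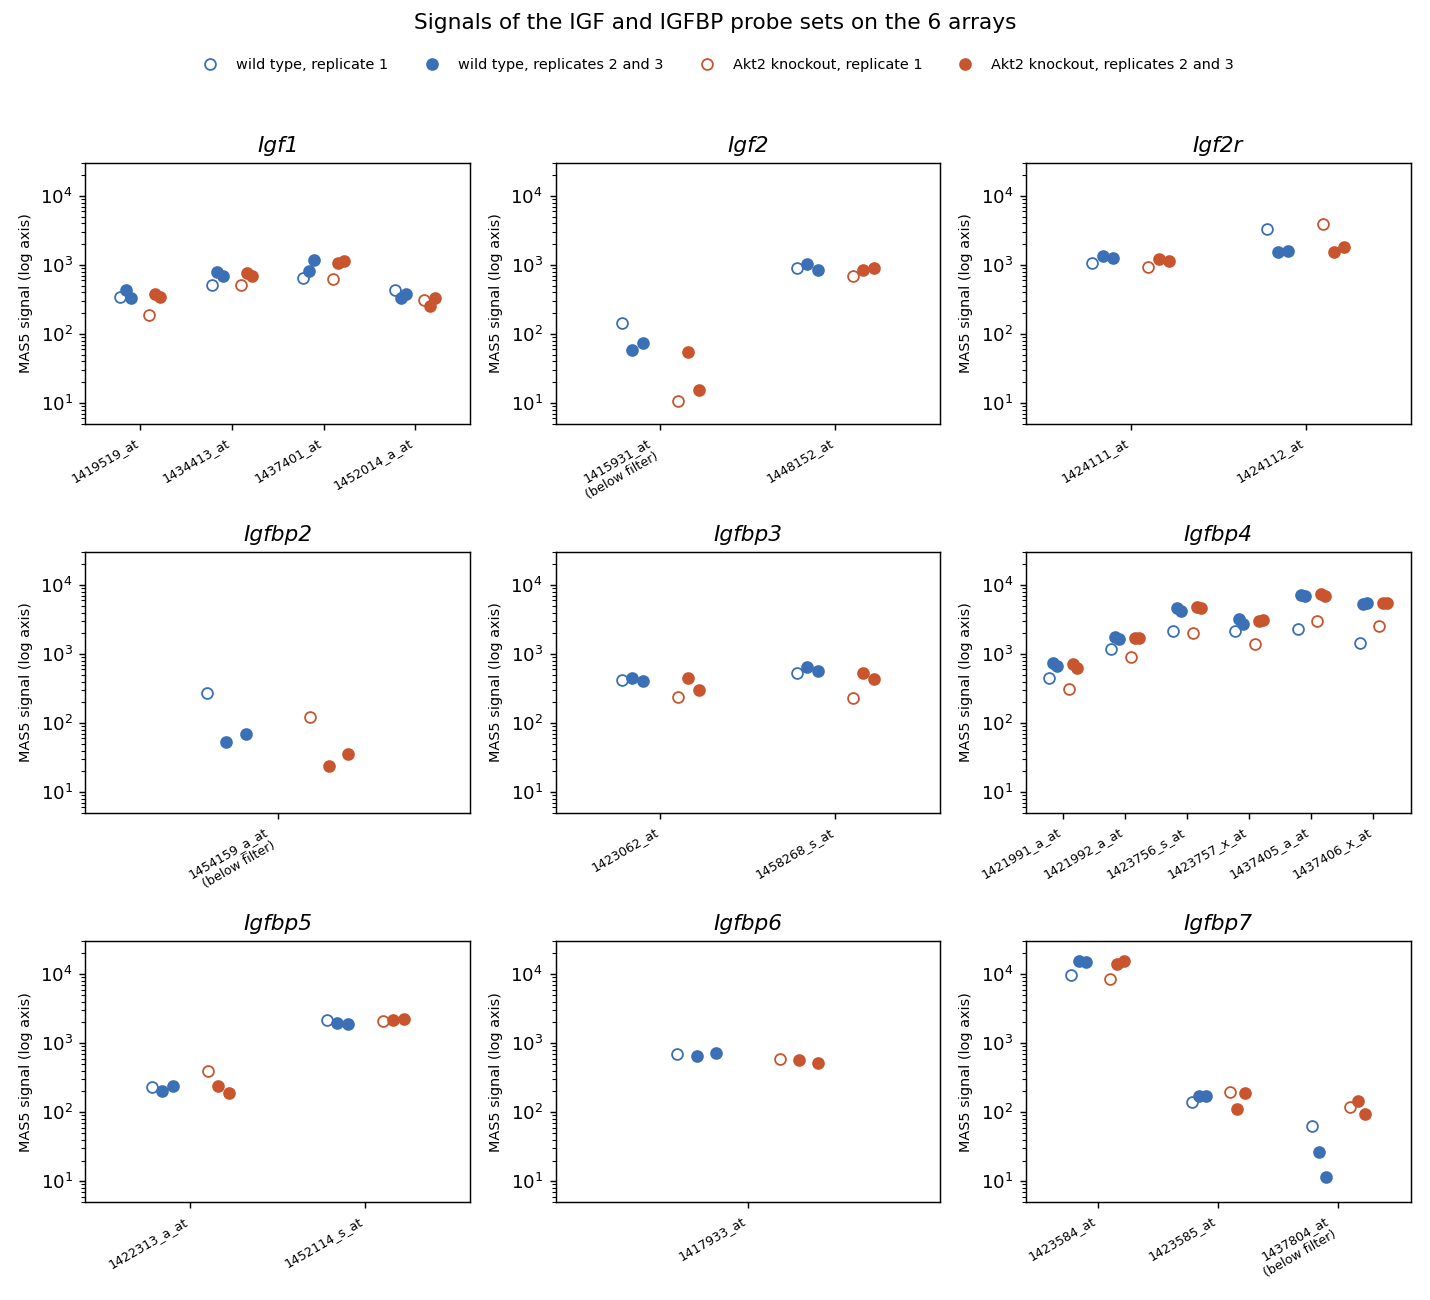
MAS5 signal (log axis) of each of the 23 probe sets on the 6 arrays, by gene, with wild type in blue, knockout in orange and the replicate 1 arrays as open circles. The replicate 1 circles of Igfbp4 lie below all others in both genotypes, and the 3 knockout circles of Igfbp6 lie below the 3 of the wild type.

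Igfbp6, a binding protein that prefers Igf2 over Igf1, was lower on every knockout array, without passing the test. Its only probe set (1417933_at) had signals of 708.2, 657.7 and 710.5 in wild type replicates 1, 2 and 3 and of 589.0, 577.8 and 512.7 in the knockout. All 3 knockout arrays lay below all 3 wild type arrays, and the replicate 1 arrays were not extreme here. The mean was 559.8 ± 41.2 (SD, n = 3) against 692.1 ± 29.8 (SD, n = 3), a log2 difference of -0.30 (SE 0.165, 95% interval -0.69 to 0.10). It was -0.26 in the replicate 1 pair and -0.32 in the later pairs. The limma adjusted p was 1, and 0.633 with the replicate 1 block, where the interval was -0.59 to -0.01. Together with 1 probe set of Igf1, it made 2 of the 20 whose genotypes did not overlap, both with the knockout below. Of all tested probe sets 7.3% did not overlap and 3.66% had the knockout below. With each array centred on its median signal, both overlapped and Igfbp6 had a log2 difference of -0.20.

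Igfbp3, the main carrier of IGFs in the blood, was lower in the knockout on both probe sets, without passing the test. Probe set 1458268_s_at had 524.2, 655.2 and 566.1 in wild type replicates 1, 2 and 3 and 228.4, 539.6 and 439.9 in the knockout. The lowest value belonged to knockout replicate 1, and the genotypes overlapped, since knockout replicate 2 exceeded wild type replicate 1. The log2 difference was -0.58 (SE 0.319), with -1.13 in the replicate 1 pair but -0.31 in the later pairs. Under the replicate 1 block its interval was -1.09 to -0.07 and its limma adjusted p 0.629. Its unadjusted limma p was also under 0.05 with the replicate number as a block, where 5.63% of all tested probe sets had that. The other probe set, 1423062_at, had 422.0, 450.7 and 403.3 in the wild type and 242.7, 449.2 and 299.6 in the knockout. It gave -0.38 (SE 0.246), from -0.75 for the replicate 1 pair to -0.20 for the later ones. Knockout replicate 2 was level with wild type replicate 2 there, while the other knockout arrays were lower than any wild type array.

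Short stretches of promoter are printed for 3 genes of the family. Igfbp6 and Igfbp3 were taken for the lowest p-values among the probe sets above the filter, and Igf2r because it carries a repeated motif. Igfbp1 is added as the family's textbook insulin-repressed member. Each is the 250 bases before a RefSeq gene start of build GRCm38.p6, read 5' to 3' on the gene's strand. Capitals mark matches, on either strand, to 4 motifs, and no matches overlapped. The TATA box was searched as TATAAA. Sites of forkhead factors, whose FoxO members Akt keeps out of the nucleus, were searched as GTAAACA. The core of the insulin response element was searched as CAAAACA. The E-box read by TFEB, a factor of lysosomal genes, was searched as TCACGTGA, which reads the same on both strands.
Igfbp6 (chr15:102143936-102144185, plus strand): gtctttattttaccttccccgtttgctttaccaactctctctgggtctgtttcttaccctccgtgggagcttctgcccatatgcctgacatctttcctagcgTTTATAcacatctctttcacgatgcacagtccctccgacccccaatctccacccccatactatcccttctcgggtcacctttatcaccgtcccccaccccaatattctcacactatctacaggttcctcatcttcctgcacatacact
Igfbp3 (chr11:7213924-7214173, minus strand): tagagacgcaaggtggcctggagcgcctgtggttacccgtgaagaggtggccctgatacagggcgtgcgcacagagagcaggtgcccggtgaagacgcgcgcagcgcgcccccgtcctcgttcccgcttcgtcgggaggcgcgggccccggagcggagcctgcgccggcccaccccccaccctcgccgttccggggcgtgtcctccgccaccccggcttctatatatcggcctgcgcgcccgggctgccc
Igf2r (chr17:12769707-12769956, minus strand): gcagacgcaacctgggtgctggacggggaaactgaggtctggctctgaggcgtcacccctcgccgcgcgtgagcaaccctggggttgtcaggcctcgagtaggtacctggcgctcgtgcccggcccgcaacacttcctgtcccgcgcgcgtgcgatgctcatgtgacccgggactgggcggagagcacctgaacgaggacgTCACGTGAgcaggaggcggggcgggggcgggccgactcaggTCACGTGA
Igfbp1 (chr11:7197537-7197786, plus strand): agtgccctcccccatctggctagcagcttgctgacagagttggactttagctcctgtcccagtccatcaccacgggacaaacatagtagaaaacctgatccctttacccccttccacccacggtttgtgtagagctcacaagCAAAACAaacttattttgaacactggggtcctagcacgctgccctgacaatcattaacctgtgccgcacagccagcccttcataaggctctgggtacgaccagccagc

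The letters CAAAACA occurred once in the Igfbp1 window and in the windows of 0 of the 9 member genes. Of all 27025 genes 1724 had them, and of all 32851 windows 5.56%, since some genes have several windows. GTAAACA was in 0 member genes, against 956 of all genes and 3.17% of all windows. TATAAA was in the windows of 2 member genes, Igfbp4 and Igfbp6, the Igfbp6 match being on the opposite strand. The Igfbp4 match began 28 bases before the gene start and the Igfbp6 match 148 bases before it. Variants of the TATA box were not searched. TATAAA was in 3872 of all genes and 12.4% of all windows. TCACGTGA was found 2 times in the Igf2r window and in no other member, against 245 of all genes and 0.785% of all windows. Such matches describe these windows only and do not show binding. Igfbp1 itself, which is no member and was added after its values were seen, was below the filter: its signals were 78.6, 6.8 and 6.9 in wild type replicates 1, 2 and 3 and 34.9, 1.5 and 5.7 in the knockout. The replicate 1 arrays were the high ones in both genotypes.

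Igf1, the ligand made in the adult heart as well as the liver, was read by 4 probe sets whose differences ran from -0.33 to 0.10. Probe set 1452014_a_at had 427.6, 336.0 and 381.9 in wild type replicates 1, 2 and 3 and 307.1, 255.0 and 334.7 in the knockout. The genotypes were separated only narrowly, with 334.7 in knockout replicate 3 just under 336.0 in wild type replicate 2. The log2 difference was -0.33 (SE 0.191), with -0.45 in the replicate 1 pair, -0.27 in the later pairs, and a limma adjusted p of 1, or 0.652 with the replicate 1 block. Probe set 1419519_at had 341.6, 436.7 and 336.7 in the wild type and 188.7, 381.6 and 345.9 in the knockout. Knockout replicate 1 was low and the other 2 knockout arrays lay among the wild type. The difference was -0.31 (SE 0.288), with -0.79 in the replicate 1 pair against -0.07 in the later pairs. Both other probe sets were close to 0, with 1434413_at at -0.02 (SE 0.24) and 1437401_at at 0.10 (SE 0.313). With the replicate 1 block, the 95% interval of 1434413_at was -0.31 to 0.27 and that of 1437401_at was -0.31 to 0.51. Signals of 1437401_at were 651.7, 812.6 and 1169.0 in the wild type and 633.0, 1073.2 and 1127.4 in the knockout. The replicate 1 arrays were the lowest of both genotypes.

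Igf2, whose gene is imprinted and expressed mainly before birth, had 1 probe set above the filter and 1 below. Probe set 1448152_at had 903.4, 1015.3 and 831.6 in wild type replicates 1, 2 and 3 and 692.1, 845.1 and 886.6 in the knockout, so that the genotypes overlapped. The fit gave a log2 difference of -0.18 (SE 0.187, 95% interval -0.63 to 0.26), with -0.37 for the replicate 1 pair and -0.08 for the later ones. Knockout replicate 1 was the lowest array, and without it the difference was -0.08. The other, 1415931_at, was below the filter, with 143.1, 57.5 and 73.8 in the wild type and 10.5, 54.4 and 15.4 in the knockout. Every knockout array was below every wild type array there, by a log2 difference of -1.26, yet knockout replicate 2 and wild type replicate 2 differed by only -0.06. In the fit without a filter its limma adjusted p was 1.

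The clearance receptor Igf2r was read by 2 probe sets whose differences had opposite signs. Probe set 1424111_at had 1075.0, 1337.9 and 1247.5 in wild type replicates 1, 2 and 3 and 921.9, 1196.8 and 1136.3 in the knockout. Each knockout array was below the wild type array of the same number, with log2 differences of -0.22, -0.16 and -0.13, although the genotypes overlapped as a whole. The pooled difference was -0.17 (SE 0.192), and the interval with the replicate 1 block was -0.44 to 0.11. Probe set 1424112_at had 3334.3, 1526.9 and 1577.6 in the wild type and 3927.3, 1519.1 and 1830.2 in the knockout. The replicate 1 arrays were the high ones in both genotypes. The difference was 0.15 (SE 0.452), and the replicate 1 block narrowed its interval to -0.17 to 0.46. The probe sets thus differed also in how they read the replicate 1 arrays, lower in 1424111_at and higher in 1424112_at.

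Igfbp4, which inhibits IGF action until the protease Pappa cuts it, was read by 6 probe sets and gave nearly level genotypes in the later pairs. In those arrays the log2 differences of the 6 were between -0.06 and 0.09. Probe set 1437405_a_at had 2283.6, 7262.1 and 6935.0 in wild type replicates 1, 2 and 3 and 2983.3, 7343.5 and 6863.0 in the knockout. In the replicate 1 pair the same 6 probe sets disagreed, from -0.61 (1423757_x_at) to 0.80 (1437406_x_at). Probe set 1437406_x_at had 1437.1, 5402.0 and 5549.1 in the wild type and 2513.2, 5574.5 and 5480.7 in the knockout. Its pooled difference of 0.27 (SE 0.59) was the highest of the 20, with 0.01 in the later pairs. On each of them both replicate 1 arrays were below all other arrays. Under the replicate 1 block the genotype difference of 1423756_s_at was 0.03 (SE 0.118), and its interval was -0.26 to 0.32.

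Igfbp5, a binding protein tied to the extracellular matrix, had differences smaller than their errors. Probe set 1452114_s_at had 2174.8, 1935.3 and 1889.9 in wild type replicates 1, 2 and 3 and 2122.3, 2188.2 and 2226.8 in the knockout. The difference was 0.12 (SE 0.164), being -0.03 for the replicate 1 pair and 0.20 for the later ones, where both knockout arrays were above both wild type arrays. Its other probe set, 1422313_a_at, gave 0.19 (SE 0.277), with 0.69 in the replicate 1 pair against -0.05 in the later pairs. Igfbp2, which lies next to Igfbp5 in the genome, was below the filter. It had 271.5, 53.9 and 69.9 in wild type replicates 1, 2 and 3 and 120.7, 24.0 and 35.3 in the knockout. Each knockout array was below the wild type array of the same number, by log2 differences of -1.04, -0.73 and -0.68. The replicate 1 arrays were high in both genotypes, so the genotypes overlapped and the SE without a block was 0.646. In the fit with the replicate 1 block and no filter, its unadjusted limma p was among the 6.36% of all probe sets under 0.05, and its adjusted p was 0.752.

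Igfbp7, a secreted protein of the vessel wall that binds IGFs only weakly, gave 3 readings that disagreed. Probe set 1423584_at had 9594.9, 15617.8 and 15287.3 in wild type replicates 1, 2 and 3 and 8426.2, 14091.2 and 15420.2 in the knockout, a difference of -0.11 (SE 0.314). Its 95% interval was -0.39 to 0.17 with the replicate 1 block. Probe set 1423585_at had 140.1, 172.3 and 171.4 in the wild type and 197.2, 112.2 and 192.5 in the knockout. The knockout arrays lay on both sides of the wild type there, and the difference was 0.02 (SE 0.245). Probe set 1437804_at, below the filter, had 62.7, 26.8 and 11.4 in the wild type and 120.7, 144.5 and 93.3 in the knockout. Every knockout array was above every wild type array there, by 0.75, 1.78 and 1.80 on the log2 scale for replicates 1, 2 and 3. In the fit without a filter its difference was 1.44 (SE 0.388), and its limma adjusted p was 1, or 0.735 with the replicate 1 block. Over all 23 probe sets without a filter, 4 did not overlap and 2 had an unadjusted p under 0.05, against 7.59% and 2.83% of all probe sets.

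**Figure D2:**
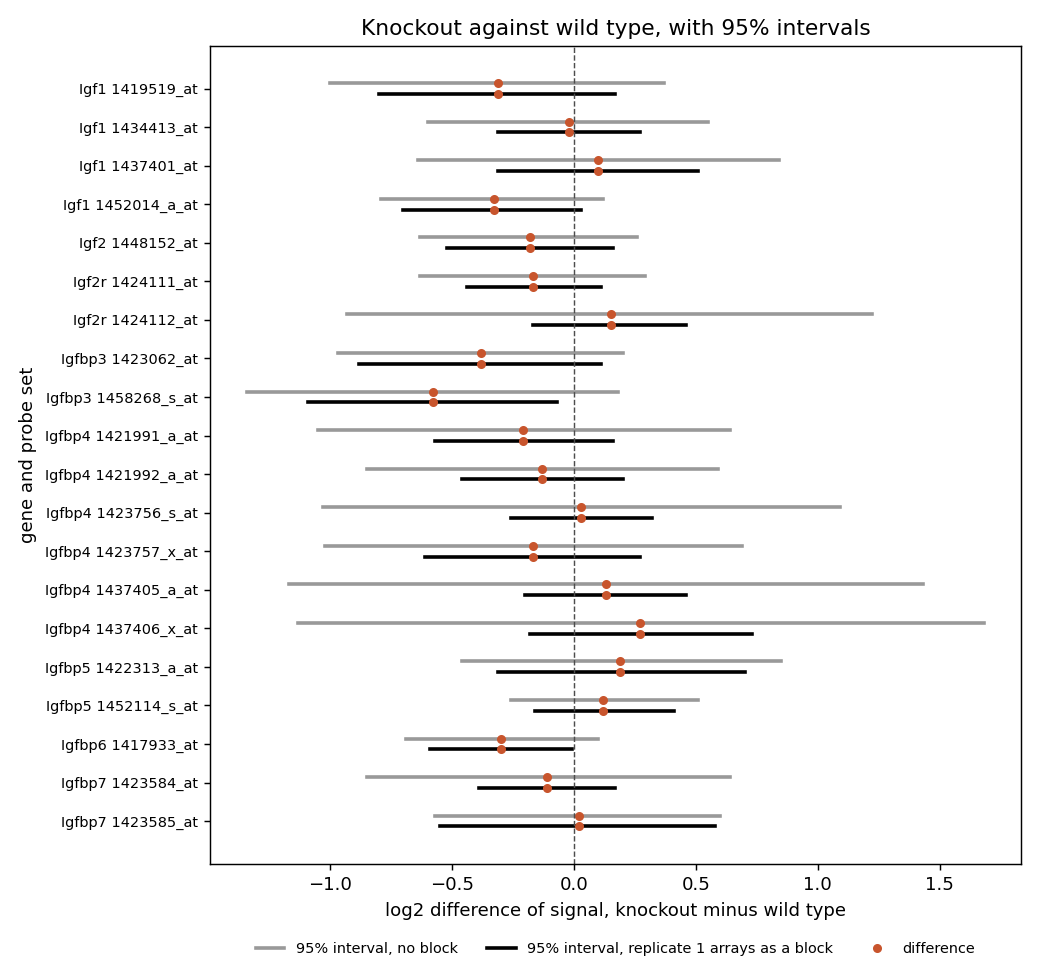
Log2 difference of signal (knockout minus wild type) for the 20 probe sets above the filter, with 95% limma intervals without a block (grey) and with the replicate 1 arrays as a block (black). With the block, the intervals of Igfbp6 and of Igfbp3 1458268_s_at lie below 0, and each of the others includes 0.

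The 95% intervals are unadjusted and each holds for 1 probe set, so they do not bound what the adjusted test could miss. With the replicate 1 block, the 3 Akt2 probe sets had limma adjusted p of 0.0877, 0.0849 and 0.417, so Akt2 still did not pass. Without a block, the 95% interval lay within a log2 difference of 1 either way for 13 of the 20 probe sets. With the replicate 1 block it did so for 19 of 20, the exception being Igfbp3 1458268_s_at. The median SE was 0.29 without the block and 0.14 with it. Lower knockout signals in all 3 same-numbered pairs were seen in 6 of the 20, against 14.6% of all tested probe sets. These were 1 probe set each of Igf1, Igf2r, Igfbp4 and Igfbp6 and both of Igfbp3, and probe sets of 1 gene are not independent. Igfbp3 1423062_at counts among them only through 449.2 against 450.7 in the replicate 2 pair, a log2 difference of 0.00. Higher signals in all 3 pairs were seen in 0 of 20, against 14.5%.

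**Figure D3:**
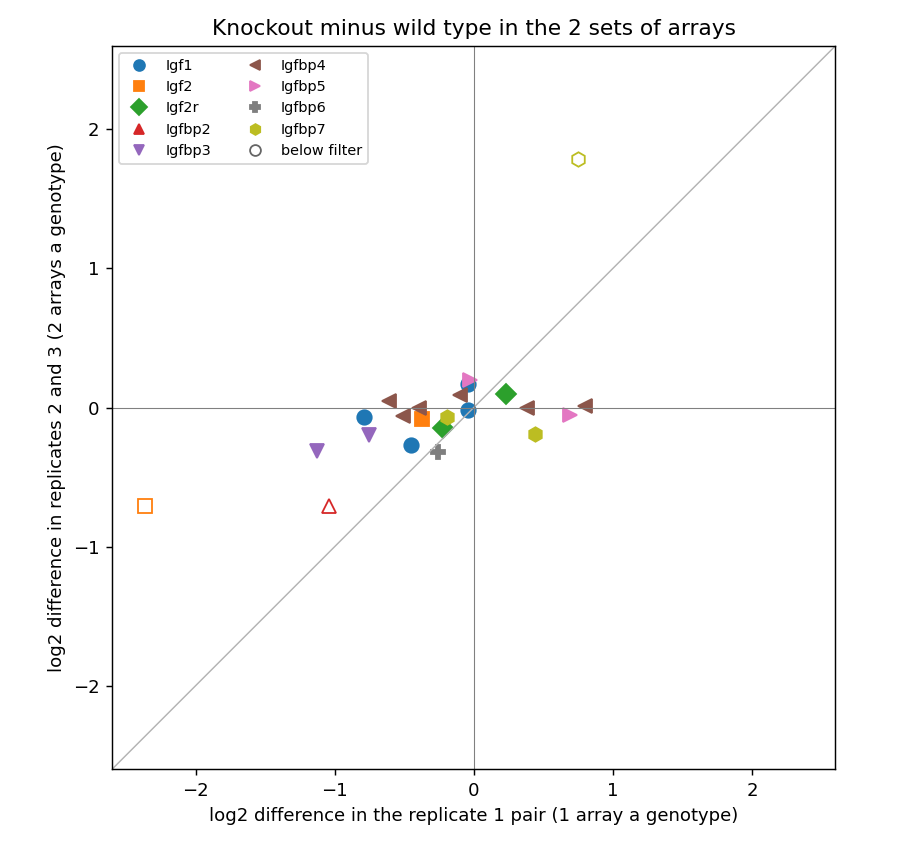
Log2 difference (knockout minus wild type) of each of the 23 probe sets in the replicate 1 pair (x axis, 1 array a genotype) and in the later pairs (y axis, replicates 2 and 3, 2 arrays a genotype), with open symbols for those below the filter and a line of equal values. Most filled symbols lie closer to 0 on the y axis than on the x axis, and Igfbp6 lies near the line.

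Differences between the genotypes were smaller in the later pairs than in the replicate 1 pair for 17 of the 20 probe sets, and for 71.4% of all tested probe sets. The later value averages 2 pairs and so tends to be smaller. Taken singly, the replicate 2 pair differed less than the replicate 1 pair in 16 of 20 (66.1% of all), and the replicate 3 pair also in 16 of 20 (64.8% of all). In 7 of the 20 the sign differed between the replicate 1 pair and the later pairs, against 50% of all. More members differed between the array sets than between the genotypes. With genotype in the model, 9 of the 20 were lower in the replicate 1 arrays at a limma adjusted p under 0.05, against 13.2% of all tested probe sets. They were the 6 of Igfbp4, 2 of Igf1 (1434413_at and 1437401_at) and Igfbp7 1423584_at. Only Igf2r 1424112_at was higher there, 1 of 20 against 20% of all. The log2 difference between the array sets was -1.44 for Igfbp4 1437405_a_at and 1.16 for Igf2r 1424112_at.

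Several cell types of the ventricle make these proteins, and their markers were read beside them. In a bulk sample fewer cells of a type and less RNA per cell cannot be told apart. Of 8 fibroblast markers 1 was lower in the knockout, the median difference was 0.10 (log2), and they had summed signals of 37136 to 59686 in the wild type and 35933 to 66992 in the knockout. Endothelial markers were lower in 7 of 8, with a median of -0.16 and sums of 48506 to 50643 against 47873 to 51118. Most of these sums came from Fabp4, the 1 not lower, with signals of 35104.4 to 39211.9 and a difference of 0.04. The genotypes did not overlap for 3 endothelial markers, Vwf, Tek and Pecam1, all with the knockout below, which 3.66% of all tested probe sets had. Of the fibroblast markers 1, Col3a1, did not overlap, with the knockout above. Col3a1, these 3 and Fabp4 were named after their values were seen. Macrophage and monocyte markers were lower in 8 of 8, with a median of -0.18 and sums of 16592 to 23456 against 11927 to 22368, the lowest being knockout replicate 1. Their medians were -0.36 in the replicate 1 pair and -0.10 in the later pairs, and in the replicate 3 pair only 2 of 8 were lower. Smooth muscle and pericyte markers were lower in 2 of 7, with a median of 0.03. Cardiomyocyte markers were lower in 6 of 7, with a median of -0.07 and, in sum, their highest signals in the replicate 1 arrays. The replicate 1 pair had a median of -0.64, the later pairs 0.16, and in the later pairs 6 of 7 were higher in the knockout. Markers of atrial muscle were lower in 0 of 4 tested, with a median of 0.54, but this rested on wild type replicate 2, without which the median was -0.04. Of the skeletal muscle list 3 of 7 markers were tested, 2 of them lower, with medians of -0.43 in the replicate 1 pair and 0.10 in the later pairs. Of the blood list 3 of 7 were tested, 2 of them lower, with medians of 0.41 and -0.60. In none of these lists did a marker pass the adjusted threshold, and none of the tested markers was at 0 on any array. The part of these cell types in the values of Igfbp3, Igfbp6 and Igf1 was not tested.

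**Figure D4:**
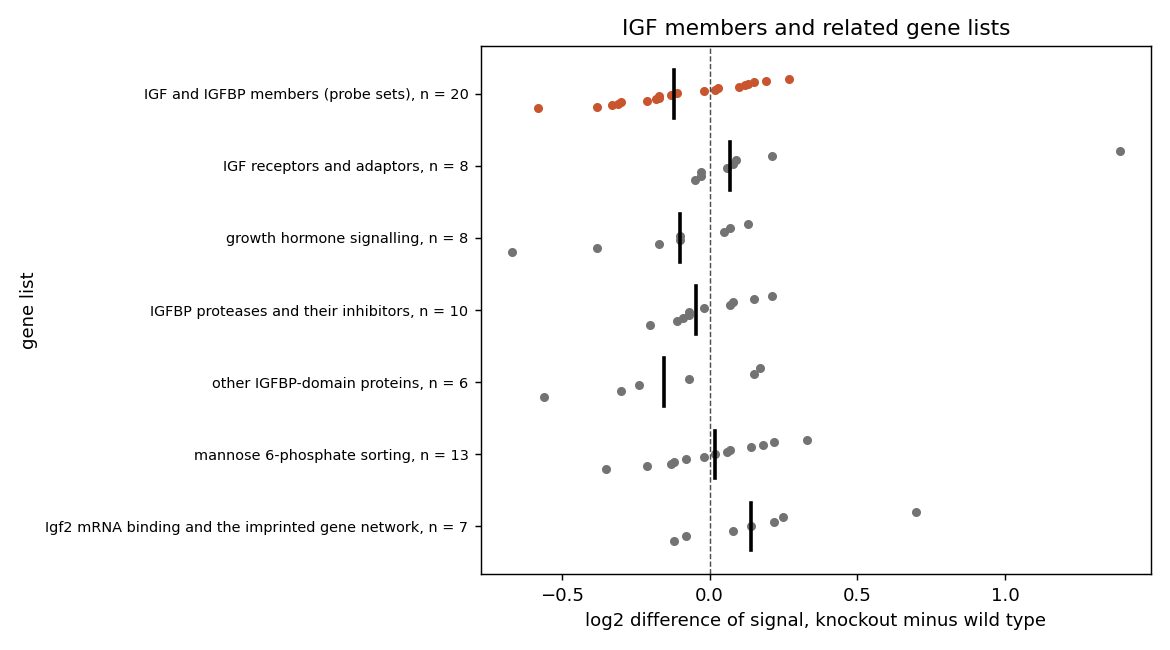
Log2 difference (knockout minus wild type) of the 20 IGF and IGFBP probe sets (orange) and of the genes of 6 related lists (grey, 1 probe set a gene), with the median of each as a black bar. The medians lie between -0.15 and 0.14, and Irs2 is the point at 1.39.

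The rest of the IGF system was read from 6 lists, in which 0 of 51 tested genes passed the adjusted threshold in limma. Unadjusted p was under 0.05 for 1 of the 51 (1.96%, against 2.01% of all tested probe sets). With the replicate 1 block it was so for 5 (9.8%, against 7.77%), namely Irs2, Igfals, Ccn2, Peg3 and the lysosomal enzyme Gaa, which was named after its values were seen. The 1 without a block was Irs2, an adaptor of the insulin and IGF receptors, at 1.39 (SE 0.528). Its signals were 43.2, 103.7 and 66.5 in wild type replicates 1, 2 and 3 and 515.7, 125.4 and 143.1 in the knockout. Knockout replicate 1 was far above the rest, so the difference was 3.05 in the replicate 1 pair against 0.57 in the later pairs. Of 8 tested receptors and adaptors, 3 were lower and the median difference was 0.07. Irs1, an adaptor of the same kind, had 0.21 (SE 0.205) and Grb14, an inhibitor of the insulin receptor, 0.09 (SE 0.169). Of 8 genes of growth hormone signalling, which drives Igf1, 5 were lower, with a median of -0.10. Igfals, the acid-labile subunit that joins Igfbp3 and IGF in the blood, had 331.0, 150.7 and 191.0 in wild type replicates 1, 2 and 3 and 118.8, 109.4 and 152.2 in the knockout. Its difference was -0.67 (SE 0.298), with -1.33 for the replicate 1 pair and -0.34 for the later ones, and the genotypes overlapped by a single array. Socs3, an inhibitor of cytokine and growth hormone signalling, had -0.38 (SE 0.245) and Jak2, the kinase of the growth hormone receptor, -0.10 (SE 0.199).

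Among proteases that cut binding proteins and their inhibitors, 6 of 10 tested genes were lower, with a median of -0.05. Pappa and Pappa2, proteases that cut binding proteins, were below the filter. The secreted serine protease Htra3 had 0.21 (SE 0.235), and the matrix proteases Mmp2 and Mmp9 had -0.20 (SE 0.241) and -0.11 (SE 0.271). Of 6 tested proteins that share the IGFBP domain, 4 were lower, with a median of -0.15. Ccn2, a matricellular protein also called connective tissue growth factor, had 2014.2, 3399.1 and 3250.2 in wild type replicates 1, 2 and 3 and 2017.7, 2107.3 and 1602.3 in the knockout. The replicate 1 pair was level (0.00) and the later pairs differed by -0.85, with a pooled -0.56 (SE 0.258). Ccn3, of the same family, had -0.24 (SE 0.24) and Kazald1 had -0.30 (SE 0.433). The sign of Kazald1 rested on the replicate 1 pair, with -1.26 there against 0.19 in the later pairs.

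Of 13 tested genes of mannose 6-phosphate sorting, the other task of Igf2r, 6 were lower and the median was 0.02. Gga1, a sorting adaptor that binds the receptor, had -0.35 (SE 0.294). The lysosomal enzyme Gusb had 0.22 (SE 0.181), and Gnptab, which makes the mannose 6-phosphate tag, had -0.21 (SE 0.225). Of 7 tested genes that bind Igf2 mRNA or belong to the imprinted gene network, 2 were lower, with a median of 0.14. Their medians were 0.39 in the replicate 1 pair and 0.02 in the later pairs, and in the replicate 3 pair 5 of 7 were lower. Peg3, an imprinted zinc finger protein, had 286.9, 166.9 and 198.8 in wild type replicates 1, 2 and 3 and 527.7, 312.7 and 280.7 in the knockout. It was higher in the knockout in each replicate number, by 0.70 in all (SE 0.303), with 0.83 for the replicate 1 pair and 0.64 for the later ones, and its limma adjusted p was 1. Ndn, another imprinted gene, had 0.25 (SE 0.285) and Mest 0.22 (SE 0.299). The sign of Mest rested on the replicate 1 pair, with 1.12 there against -0.23 in the later pairs.

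The genes whose pattern over the 6 arrays was most like that of a member were found for the 3 members with the lowest unadjusted p in their brightest tested probe set, among 11075 genes. Likeness is the root mean square difference of log2 values after each probe set was centred on its mean. Closest to Igfbp3 were Pdk4, Atn1 and Folr2, at 0.121, 0.129 and 0.139. Closest to Igfbp6 were Prelid3b, Tbcb and Zbtb46, at 0.0398, 0.0463 and 0.0469. Closest to Igf2 (1448152_at) were Dlgap4, Crcp and Siva1, at 0.0462, 0.0503 and 0.052.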

How the data were processed

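The deposited values are intensities, 1 linear MAS5 signal for each of 45101 probe sets on 6 Affymetrix mouse arrays. Per the submitters' processing notes the authors used MAS5; version, settings and detection calls: not given in the sources used here. On every array the mean signal without the extreme 2% at either end was 500, and this scaling was kept. Median signals were 88.4 to 91.2 in 4 arrays and 167.2 and 134.3 in wild type and knockout replicate 1. Precision is limited by 3 arrays a group.

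The tests used log2(signal + 21.7), the pseudocount being the 20th percentile of all values. Of the 45037 probe sets other than controls, the 22519 averaging at least 6.868 (log2), the median, were fitted with limma 3.58.1 in R 4.3.3 (lmFit, eBayes, no covariate) and adjusted with Benjamini-Hochberg at 0.05. The fit was tested on simulated data. Errors of differences are moderated SE. Gene names come from GEO's platform annotation, in which 34945 had 1 symbol, 932 several and 9160 none here. All 9 members matched a RefSeq gene by ID, and all had a RefSeq promoter window. The list genes are read by their brightest tested probe set.

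The members and lists were chosen with earlier results of these data known. Named are all member probe sets, Akt2, up to 3 genes of each list by lowest unadjusted p, and the 3 nearest genes of 3 members. Igfbp1 was added. Wild type and knockout arrays of number 1, 2 and 3 deviated together from their group means (correlations of 0.61, 0.45 and 0.39), though the labels do not say what the numbers mean, so a fit with the replicate number as a block was run. Alternatives changed the pseudocount, filter, scaling, variance estimate, block and arrays used.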

Additional observations from a re-analysis of the deposited data

How the results depend on the processing

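Under every alternative run, 0 IGF or IGFBP probe sets and 0 genes of the 6 lists of the IGF system passed the adjusted limma threshold, and the lowest adjusted p of any member was 0.514. The alternatives were pseudocounts of 1 and 50, no filter and a filter at the 75th percentile, quantile normalisation, median centring, trended and robust variance, the replicate block, the replicate 1 block with and without trended and robust variance, replicates 2 and 3 alone, and leaving out each array. Over the table, 1 probe set was called with the replicate 1 block and 13 with that block and trended, robust variance, against 0 otherwise. Members with an unadjusted p under 0.05 numbered 0 in the planned fit, 2 without a filter, 1 with the replicate block and 2 with the replicate 1 block, with or without trended and robust variance. The trended and robust fit with that block had 8.31% of all probe sets under 0.05. Leaving out an array gave 0 to 2, the 2 being without knockout replicate 2, against 1.41% of all probe sets. The replicate block changed no call.

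Members that did not overlap numbered 2 of 20 as reported, 4 of 23 without a filter, 1 of 15 with the filter at the 75th percentile (7.1% of all probe sets), 1 of 20 with quantile normalisation (7.8%), and 0 of 20 with median centring (6.02%). In replicates 2 and 3 alone they numbered 5 of 20, a share below the 42% of all tested probe sets. Leaving out an array gave 2 to 5. The 2 without wild type replicate 2 and the 2 without knockout replicate 3 stand against 13.4% and 13.3% of all probe sets. The 3 without wild type replicate 3 and the 3 without knockout replicate 1 stand against 12.7% and 18.8%. The 5 without wild type replicate 1 stand against 27.9% of all probe sets, and the 5 without knockout replicate 2 against 12.3%. Igfbp6 was among them in each of these settings but median centring, which moved the median of all tested probe sets to 0.10. Of 355 alternative values of members, 29 had the other sign, and 11 of the 23 probe sets kept theirs, 3 of which were fitted only without a filter. Igf1 1434413_at was 0.07 with median centring. In replicates 2 and 3 alone Igfbp4 1423757_x_at was 0.05, Igfbp5 1422313_a_at -0.05 and Igfbp7 1423585_at -0.19. Without 1 array, Igf1 1434413_at ran from -0.18 to 0.14, Igf1 1437401_at from -0.09 to 0.36 and Igf2r 1424112_at from -0.26 to 0.51. Igfbp4 1421991_a_at then ran from -0.43 to 0.15, 1421992_a_at from -0.29 to 0.16 and 1423756_s_at from -0.32 to 0.44. Also of Igfbp4, 1423757_x_at ran from -0.36 to 0.21, 1437405_a_at from -0.41 to 0.54 and 1437406_x_at from -0.36 to 0.65. Igfbp5 1422313_a_at ran from -0.08 to 0.41, Igfbp7 1423584_at from -0.34 to 0.16 and Igfbp7 1423585_at from -0.11 to 0.25. The other member values kept their direction, among them Igf2 1448152_at, which moved from -0.18 to -0.08 without knockout replicate 1. In an alternative chosen after seeing the data, the median difference of atrial markers was -0.04 without wild type replicate 2, against 0.54. The cause of these changes was not tested, and fits without an array also leave unequal shares of the array sets in the genotypes. The median of the pathway genes was 0.02 by brightest probe set and -0.01 over all tested probe sets of a gene.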
